A study of Danio rerio with 14 samples.

Results

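Gastrula stage zebrafish embryos that had developed in retinoic acid (RA) were compared with untreated embryos of the same age, 6 hpf (hours post fertilization). The comparison uses 4 of the 14 Affymetrix Zebrafish arrays of the series, 2 of RA treated and 2 of untreated embryos, and every one of the 15502 probe sets that is not an array control. The study mapped nucleosomes at hox promoters in the early embryo, and the arrays recorded which hox genes were expressed with and without RA. The wild-type embryos came from natural matings of the EK strain, carried no mutation or transgene, and were whole embryos, so all tissues are mixed on each array. RA was put into the water soon after the first cleavage and stayed there until RNA was taken, while the untreated embryos had no RA added and keep whatever RA they make themselves. For this platform the methods mention RA treated embryos of 6 hpf, but of untreated embryos only those of 9 hpf. The untreated 6 hpf group here therefore rests on the labels. No label says whether the 2 arrays of a group came from separate clutches, so p-values measure only the spread between arrays, which may be technical. The other arrays hold untreated and RA treated embryos of 4 and 9 hpf and a fibroblastic cell line. Those of 4 and 9 hpf were fitted together with the 6 hpf arrays, so their spread enters the standard errors and p-values. They also serve the stage comparison below. Of the cell line only the tag controls were used, for the background level.

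RA is a small lipophilic signal made from vitamin A. Aldh1a enzymes make it in the mesoderm of the trunk, Cyp26 enzymes degrade it in the head and tail, and inside the nucleus it binds RAR receptors paired with RXR, which sit on response elements beside target genes. In vertebrate embryos it patterns the hindbrain and anterior trunk by switching on hox genes, whose paralog groups are expressed in order along the body axis, the low-numbered groups in hindbrain and the high-numbered ones in trunk and tail. Cells hold RA within limits by feedback, raising its degradation and lowering its synthesis when it is in excess.

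Values are log2 expression values as deposited. The 17 tag controls of the array have no counterpart among zebrafish genes. The 95th percentile of their values over all 14 arrays of the series, 5.302, served as background level. Medians of the 4 arrays lay between 6.13 and 6.24, and 60.0% to 61.5% of probe sets were above background. Replicates differed by a median of 0.194 (untreated) and 0.193 (RA) where the mean exceeded 7, and by 0.613 and 0.577 in dimmer probe sets. Untreated array 2 correlated with RA array 1 at 0.944 across probe sets, above its own replicate at 0.937, while the 2 RA arrays correlated at 0.948. The tag controls themselves had medians of 1.83 and 1.94 on the untreated arrays and 3.56 and 3.39 on the RA arrays. This is a difference of 1.59 between levels under background, and its part in the results was not tested. The 5000 probe sets at or below background on all 4 arrays had a median change of -0.24, and the 5704 above 7 on all 4 had one of 0.003. Both of these sets were chosen by their levels on the same 4 arrays. Of 13 gastrula marker genes, from the mesodermal tbxta and tbx16 to the endodermal sox32 and the outer-layer keratin krt4, 13 were above background on both untreated arrays and 12 on both RA arrays, the exception being vent at 5.14 on RA array 1.

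A small, mostly upward set of genes separated the groups. By limma, 44 of the 15502 probe sets passed an adjusted p under 0.05 (0.284%), 39 higher with RA (0.252%) and 5 lower (0.0323%), and at an unadjusted p under 0.05 there were 679 higher (4.38%) and 485 lower (3.13%). The 39 higher ones had changes of 1.04 to 8.44 with a median of 4.21, against a median of -0.02 over all probe sets. Of these 39, 11 were above background on both untreated arrays and 36 on both RA arrays. The 2 groups did not overlap in any of the 44, but 41.3% of all probe sets also did not overlap, as 2 arrays against 2 allows. The 44 comprise 37 named genes (1 of them, nfia, by 2 probe sets), 1 gene known by a code name and 5 probe sets with no gene. These calls rest on having both RA arrays: without RA array 1 the count fell to 3 and without RA array 2 to 1, all of them lower with RA, and without untreated array 1 or 2 it was 19 or 17. Leaving either untreated 9 hpf array out of the fit, which lends its spread to this comparison, gave 25 in each case.

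**Figure D1:**
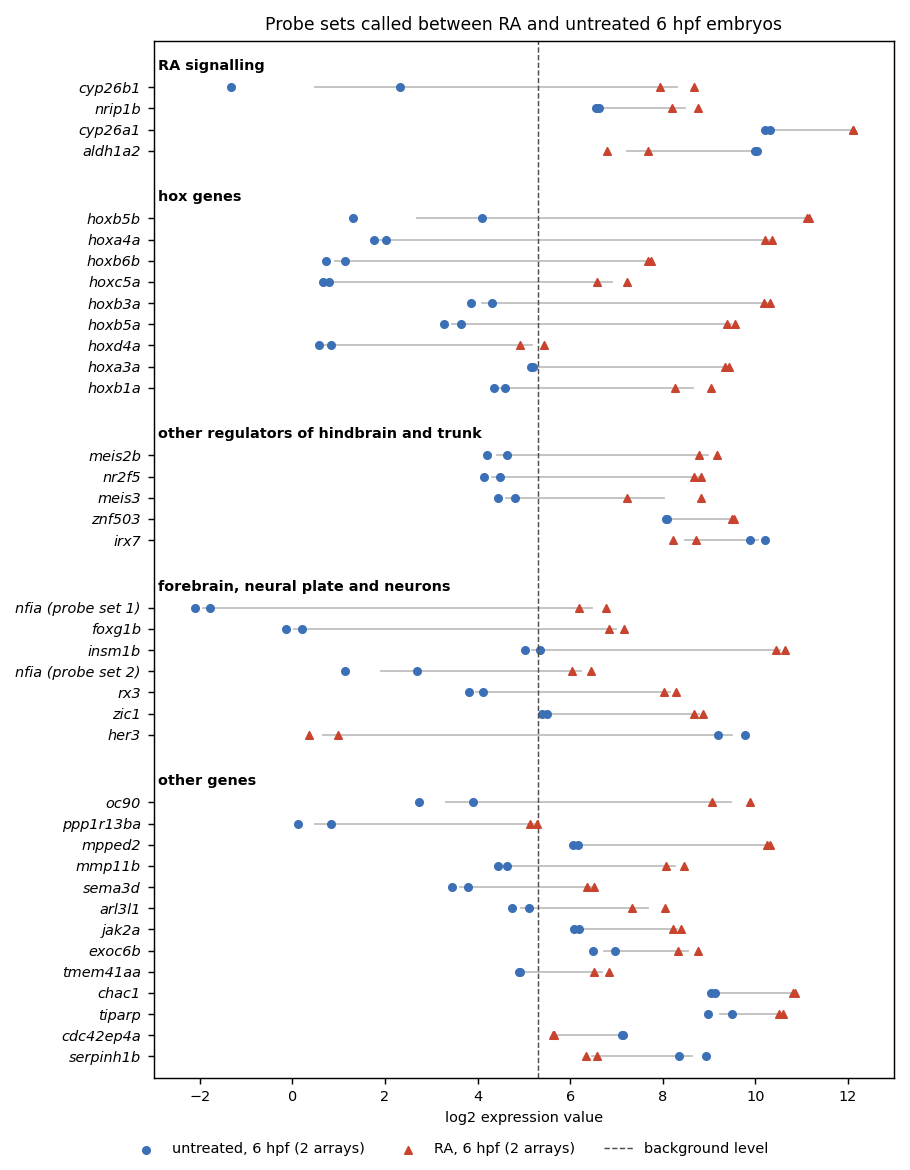
Log2 expression values (horizontal axis) of the named probe sets called between the groups, grouped by what the gene is known for; blue circles are the 2 untreated arrays, red triangles the 2 RA arrays, grey lines join the group means and the dashed line is the background level of 5.302. Most genes higher with RA sit left of the dashed line when untreated, whereas cyp26a1, chac1, tiparp and znf503 are well to its right in both groups.

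**Figure D2:**
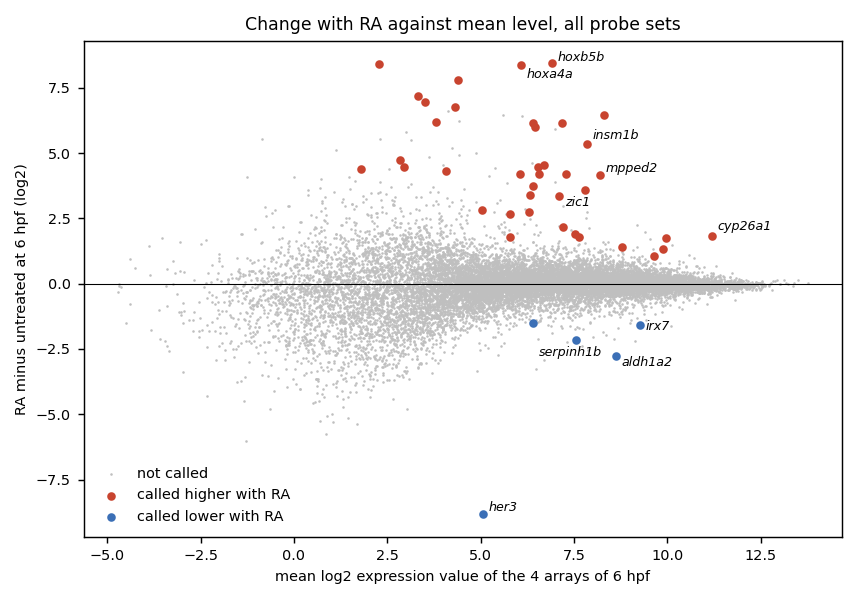
RA minus untreated at 6 hpf (vertical axis, log2) against the mean log2 value of the 4 arrays (horizontal axis) for all 15502 probe sets; grey points were not called, red points were called higher and blue points called lower with RA. The scatter of uncalled probe sets widens to the left, at low levels, and her3 stands alone at -8.82.

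Among genes that set the supply of RA, the degrading enzyme gene cyp26a1 rose, cyp26b1 was called higher by 1 of its 4 probe sets, and the synthesizing enzyme gene aldh1a2 fell. cyp26a1, which degrades RA, stood at 10.32 and 10.22 in untreated embryos and at 12.10 and 12.11 with RA. The replicates were close together in both groups, and the change was 1.84 ± 0.26 (SE, n = 2 arrays a group), a 3.57-fold rise (adjusted p = 0.018). The SE, here and below, comes from the fit of all 12 embryo arrays. cyp26b1, a second degrading enzyme, was called by 1 of its 4 probe sets, which was at 2.32 and -1.32 in untreated embryos and at 8.67 and 7.93 with RA, at least 7.99-fold higher against background (adjusted p = 0.041). The other 3 cyp26b1 probe sets were also higher on both RA arrays but did not pass, with adjusted p of 0.069, 0.262 and 0.662. The first of these has the highest mean and represents the gene in the lists. The second was below background on all 4 arrays, and the third was at 5.32 and 1.62 untreated against 5.72 and 5.86. aldh1a2, the main RA-synthesizing enzyme of the early embryo, fell: the untreated arrays gave 10.03 and 9.98, the RA arrays 7.69 and 6.79. That is a change of -2.77 ± 0.34, 6.82-fold lower (adjusted p = 0.008), and it exceeds the gap between the 2 RA arrays.

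Around these enzymes most of the pathway did not pass the test. By 1 probe set a gene, 0.353% of all 8781 genes were called higher and 0.0569% lower. Among 10 measured genes of RA synthesis and retinoid supply aldh1a2 was the only call, 0 were higher, and the median change was -0.22. dhrs3a, a reductase that turns retinaldehyde back to retinol, was at 2.76 and 1.96 untreated and at 7.97 and 6.78 with RA (adjusted p = 0.076), while rdh10b, which makes retinaldehyde, was at 10.93 and 10.93 against 10.74 and 10.77. Of 7 genes of RA degradation and binding 1 was higher, with a median of 0.92, and the carrier protein gene crabp2b was at 10.65 and 10.70 untreated and at 10.70 and 10.78 with RA. The third degrading enzyme, cyp26c1, was below background on all 4 arrays.

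Of 14 genes for RA receptors and coregulators 2 rose and 0 fell, against the same shares over all genes. The median change was 0.66, and 7 were higher and 0 lower at an unadjusted p under 0.05, against 4.38% and 3.13% of all probe sets. nrip1b, a corepressor of ligand-bound nuclear receptors, went from 6.61 and 6.55 to 8.77 and 8.19, a change of 1.90 ± 0.25, or 3.72-fold (adjusted p = 0.011). znf503, a zinc finger corepressor of the nlz family that acts in the hindbrain, went from 8.10 and 8.08 to 9.49 and 9.53, a change of 1.42 ± 0.19 or 2.68-fold (adjusted p = 0.015). Its relative znf703 was at 9.38 and 9.41 untreated and at 10.99 and 10.75 with RA, but its adjusted p was 0.175. The receptor gene raraa was at 8.36 and 7.80 untreated and at 10.37 and 10.27 with RA (adjusted p = 0.069), and rarab at 8.32 and 8.32 against 9.07 and 8.95 (adjusted p = 0.210). Of the RXR genes, rxrga was at 3.90 and 3.26 untreated and at 6.04 on RA array 1, RA array 2 being below background (adjusted p = 0.553), while rxrab was below background on all 4 arrays and rxrba and rxrbb overlapped between the groups.

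The hox genes made up the largest group of calls. Of 49 hox genes listed, 42 were measured, and by 1 probe set a gene 8 were higher and 0 lower, where 0.353% of all 8781 genes were higher and 0.0569% lower. All 8 belong to paralog groups 1 to 6: in those groups 8 of 21 genes were called and the median change was 3.71, whereas in groups 7 to 13 none of 21 was called by limma, 1 was higher and 1 lower at an unadjusted p under 0.05, and the median was 0.03. None of the 21 genes of groups 1 to 6 was above background on both untreated arrays and 14 were on both RA arrays; in groups 7 to 13 the number was 1 both times. Because the untreated values lie at background, the folds below are lower bounds ("at least"), while the fitted log2 changes use values under background and are not bounds. Since embryos were taken whole, more cells with a transcript and more transcript in each cell cannot be told apart.

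In the hindbrain groups, hoxb1a, which is known for specifying rhombomere identity, was at 4.58 and 4.35 in untreated embryos and at 9.04 and 8.26 with RA, at least 10.2-fold higher (change 4.19 ± 0.48, adjusted p = 0.006). hoxa3a went from 5.19 and 5.15 to 9.42 and 9.34, at least 16.9-fold (adjusted p = 0.007), and hoxb3a from 4.31 and 3.85 to 10.31 and 10.19, at least 30.9-fold (adjusted p = 0.025). hoxa4a went from 2.03 and 1.76 to 10.36 and 10.21, at least 31.6-fold (change 8.39 ± 0.82, adjusted p = 0.003). hoxd4a passed by 1 probe set alone, at 0.57 and 0.83 untreated and 4.92 and 5.44 with RA (adjusted p = 0.049), which is too near background for a fold, and its brighter probe set did not (adjusted p = 0.923).

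In the groups of the anterior trunk hoxb5b reached the highest level: 1.31 and 4.08 untreated, 11.12 and 11.15 with RA. The untreated arrays were far apart but both below background, so that hoxb5b was at least 56.9-fold higher (change 8.44 ± 1.00, adjusted p = 0.007). Its duplicate hoxb5a went from 3.65 and 3.26 to 9.39 and 9.55, at least 17.9-fold (adjusted p = 0.005). hoxb6b went from 0.72 and 1.13 to 7.75 and 7.67, at least 5.30-fold (adjusted p = 0.031), and hoxc5a from 0.67 and 0.78 to 6.59 and 7.22, at least 3.03-fold (adjusted p = 0.011).

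Several hox genes separated widely without passing the adjusted threshold. hoxa5a was at 1.99 and 2.75 untreated and at 8.77 and 8.89 with RA (adjusted p = 0.099), and hoxc1a at 0.92 and 0.71 against 7.58 and 7.25 (adjusted p = 0.113). hoxb4a was at 3.71 and 4.10 against 7.11 and 7.10 (adjusted p = 0.182). By contrast hoxa1a, at 3.07 and 3.43 untreated and 4.57 and 2.97 with RA, overlapped between the groups, as did hoxb7a of the trunk groups, at 4.29 and 4.89 untreated and 3.47 and 4.67 with RA. The study's own list of 9 hox genes induced by RA held 6 calls and a median of 6.46. Its selection relied partly on these arrays, so it gives no independent evidence of direction. The study's list of hox genes not induced had 23 measured genes, with a median of 0.13. By 1 probe set a gene, limma called 0 of these, 4 being higher and 1 lower at an unadjusted p under 0.05. However, hoxd4a is on that list, and its dimmer probe set was called higher by limma (adjusted p = 0.049), as given above. Annotated spans of some hox genes overlap in RefSeq (GRCz12tu), namely hoxa3a with hoxa4a and hoxa5a, hoxb3a with hoxb4a, hoxb5a and hoxb6a, hoxc3a with hoxc4a, hoxc5a, hoxc6a, hoxc8a and hoxc9a, and hoxd3a with hoxd4a, so that probe sets of these genes may read shared transcripts.

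**Figure D3:**
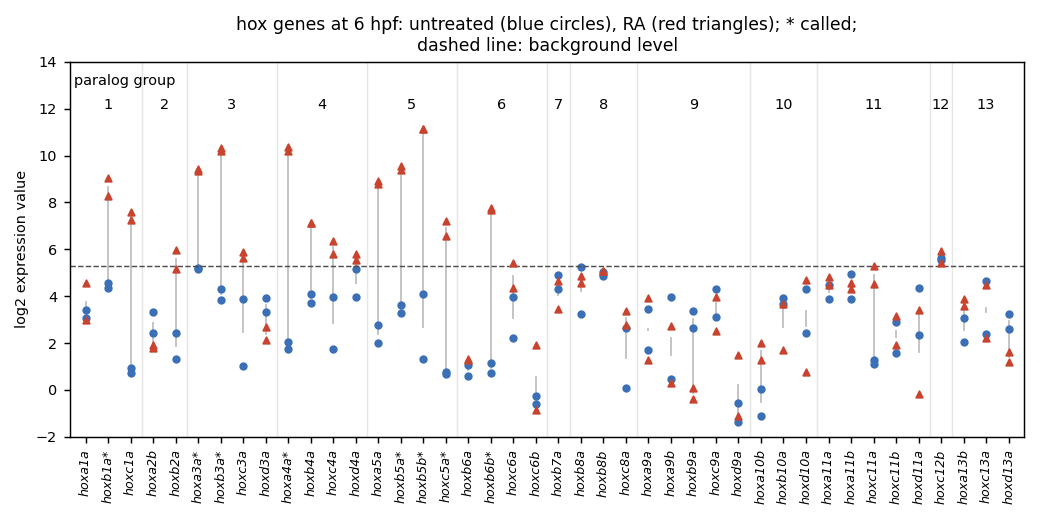
Log2 expression values (vertical axis) of the 42 measured hox genes at 6 hpf, ordered by paralog group, 1 probe set a gene (the one with the highest mean); blue circles are untreated arrays, red triangles RA arrays, the dashed line is the background level and an asterisk marks a called gene. The red triangles rise above the dashed line mainly in paralog groups 1 to 6, while in groups 7 to 13 both groups stay near or under it.

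Single genes for Hox cofactors and other hindbrain regulators were called as well. The Meis proteins bind DNA with Hox proteins. In a list of 19 genes for TALE homeodomain proteins, which holds Iroquois genes besides Meis genes, 2 were higher and 1, the Iroquois gene irx7, was lower. The median was -0.11, with 4 higher and 3 lower at an unadjusted p under 0.05. Over all genes 0.353% were called higher and 0.0569% lower. At the unadjusted threshold 4.38% of all probe sets were higher and 3.13% lower. meis2b went from 4.64 and 4.21 to 9.17 and 8.79, at least 12.8-fold higher (change 4.56 ± 0.45, adjusted p = 0.003). meis3 went from 4.43 and 4.80 to 8.83 and 7.23, at least 6.62-fold (adjusted p = 0.035), the RA arrays differing by more than replicates usually did. meis1b, at 4.93 and 2.90 untreated and 8.40 and 7.92 with RA, did not pass (adjusted p = 0.186), and the Pbx partners pbx2 and pbx4 were well expressed with changes of -0.13 and -0.08. irx7, an Iroquois gene of the prospective midbrain and hindbrain, fell from 10.21 and 9.88 to 8.71 and 8.22, a change of -1.58 ± 0.21 or 2.99-fold (adjusted p = 0.011). irx1b, which in zebrafish acts with irx7, was instead at 8.61 and 8.76 untreated and 10.44 and 10.35 with RA (adjusted p = 0.431).

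nr2f5, an orphan nuclear receptor of the COUP-TF family, was the 1 call among 6 such genes (median 1.57), where 0.353% of all genes were called higher and 0.0569% lower. At an unadjusted p under 0.05, 3 of the 6 were higher and 0 lower, against 4.38% and 3.13% of all probe sets. nr2f5 went from 4.13 and 4.48 to 8.83 and 8.68, at least 11.0-fold higher (change 4.45 ± 0.62, adjusted p = 0.018). Its relative nr2f6b was at 6.41 and 6.74 untreated and 9.07 and 9.09 with RA (adjusted p = 0.555). Of 26 genes that pattern the hindbrain and the midbrain boundary, znf503 was the only call (median 0.38), with 4 higher and 0 lower at an unadjusted p under 0.05. hnf1bb, a caudal hindbrain regulator, was at 3.93 and 4.20 against 8.49 and 8.92 (adjusted p = 0.076).

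Forebrain genes were called higher as well, although the list as a whole was not shifted upward. Of 36 genes of forebrain and eye field 3 were higher and 0 lower, with a median change of -0.27, and at an unadjusted p under 0.05 there were 4 higher and 6 lower. Over all genes 0.353% were called higher and 0.0569% lower. At the unadjusted threshold 4.38% of all probe sets were higher and 3.13% lower. rx3, which specifies the eye field, was at 3.82 and 4.12 in untreated embryos and at 8.03 and 8.29 with RA, at least 7.24-fold higher (change 4.19 ± 0.47, adjusted p = 0.006). foxg1b, a telencephalic factor, went from -0.13 and 0.21 to 7.15 and 6.83, at least 3.22-fold (adjusted p = 0.009). zic1, a zinc finger gene of the neural plate border and dorsal neural tube, was just above background untreated and went from 5.49 and 5.38 to 8.87 and 8.68, a change of 3.34 ± 0.29 or 10.1-fold (adjusted p = 0.003).

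Other forebrain genes lay lower with RA but missed the threshold. otx1 was at 8.80 and 8.62 untreated and at 7.58 and 7.19 with RA (adjusted p = 0.108). six3b was at 6.81 and 6.71 against 4.55 and 4.41 (adjusted p = 0.328), and hesx1 at 7.25 and 5.88 against 2.83 and 3.62 (adjusted p = 0.480). In each of these 3 genes both RA arrays were below both untreated arrays, but 41.3% of all probe sets also did not overlap.

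her3 had the largest fitted change and the smallest p of all probe sets tested. It encodes a Hairy/E(spl) repressor that in zebrafish keeps the proneural gene neurog1 off between the first neuron-forming domains. The untreated arrays gave 9.77 and 9.20 and the RA arrays 0.36 and 0.98, far below background. The fitted change was -8.82 ± 0.39 (adjusted p = 7.1e-06), and her3 was at least 18.1-fold lower with RA. A second her3 probe set was below background on all 4 arrays (4.27 and 4.82 against 3.27 and 2.23) and gives no fold. Of 13 Hairy/E(spl) genes her3 was the only call, where 0.0569% of all genes were called lower. At an unadjusted p under 0.05, 0 of the 13 were higher and 2 lower, her3 and her2, against 4.38% and 3.13% of all probe sets. her1 was at 8.35 and 8.21 untreated and at 7.25 and 6.91 with RA, and her6 at 8.81 and 8.53 against 8.41 and 8.48.

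In the neural lists beyond her3 little passed. Among 26 genes of neural plate and progenitors 1 was lower, her3, and 0 higher, and of 31 genes of neuronal differentiation 1 was higher and 0 lower, with medians of -0.19 and 0.04. At an unadjusted p under 0.05 the neural plate list had 1 higher, gmnn, and 4 lower, her3, sox2, olig2 and pou3f1, the last pair below background on all 4 arrays. The differentiation list had 4 higher, neurog1, insm1b, lhx1a and myt1a, and 1 lower, tubb5. Of all probe sets 4.38% were higher and 3.13% lower at that threshold, and of all genes 0.353% were called higher and 0.0569% lower. The call in the differentiation list was insm1b, a zinc finger factor of newborn neurons and endocrine cells, at 5.02 and 5.34 untreated and 10.44 and 10.64 with RA (change 5.36 ± 0.53, adjusted p = 0.003), where 1 of the 2 untreated arrays was above background. neurog1 was at 3.58 and 0.87 untreated and at 5.72 and 4.75 with RA, so that only 1 RA array exceeded background (adjusted p = 0.244). myt1a, another neuronal factor, was at 6.42 and 6.17 against 7.95 and 7.75 (adjusted p = 0.064). Of the progenitor factors, sox2 was at 10.08 and 10.40 untreated and at 8.79 and 7.27 with RA (adjusted p = 0.187), and sox3 at 11.83 and 11.87 against 11.98 and 11.93 (adjusted p = 0.993).

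Several called genes are not usual markers of axial patterning. nfia, a nuclear factor I transcription factor, passed by both of its probe sets, at least 2.25-fold and at least 1.91-fold higher (adjusted p = 0.005 and 0.026), with levels of 6.03 to 6.77 on the RA arrays. oc90, which encodes an otoconial protein of the inner ear, went from 3.91 and 2.74 to 9.88 and 9.07, at least 18.0-fold (adjusted p = 0.007). mpped2, a metallophosphoesterase gene, was above background in both groups and rose from 6.06 and 6.16 to 10.30 and 10.25, a change of 4.17 ± 0.39 or 18.0-fold (adjusted p = 0.003).

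Enzymes, signalling genes and secreted factors were among the smaller changes. mmp11b, a matrix metalloproteinase gene, was at 4.43 and 4.62 untreated and 8.06 and 8.46 with RA, at least 7.78-fold higher (adjusted p = 0.009), and arl3l1, for a small GTPase, was at least 5.21-fold higher. jak2a, a Janus kinase gene, was 4.49-fold higher with RA and exoc6b, an exocyst subunit gene, 3.49-fold. exoc6b was at 6.50 and 6.97 untreated and at 8.32 and 8.75 with RA, while untreated embryos of 4 hpf had 8.73 and 8.78. The semaphorin gene sema3d and tmem41aa were at least 2.20-fold and 2.59-fold higher. chac1, a glutathione-degrading enzyme gene known from stress responses, went from 9.04 and 9.14 to 10.84 and 10.82, a 3.35-fold rise (adjusted p = 0.011), and tiparp, an ADP-ribosyltransferase gene, from 8.98 and 9.49 to 10.59 and 10.51, a 2.48-fold rise (adjusted p = 0.049). Of 25 genes of the stress, p53 and immediate early list 0 were called by limma, 0 being higher and 1 lower at an unadjusted p under 0.05. ppp1r13ba reached only 5.28 and 5.13 with RA, so no fold is given.

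The remaining 2 genes called lower were serpinh1b, the collagen chaperone, and cdc42ep4a, an effector of the GTPase Cdc42. serpinh1b was at 8.35 and 8.92 untreated and at 6.57 and 6.35 with RA, a change of -2.17 ± 0.35 or 4.51-fold (adjusted p = 0.039). cdc42ep4a was at 7.14 and 7.12 against 5.66 and 5.64, 2.80-fold lower (adjusted p = 0.045). serpinh1b was the only call among 21 genes of extracellular matrix and adhesion, whose median was -0.40, where 0.0569% of all genes were called lower. At an unadjusted p under 0.05 this list had 1 higher and 3 lower, against 4.38% and 3.13% of all probe sets.

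In the lists of germ layers and tissues other than neural ectoderm no gene was called by limma. With 0.353% of all genes called higher and 0.0569% lower, few or no calls would be found in lists of this size, and the absence of calls says little about them. At an unadjusted p under 0.05, 4.38% of all probe sets were higher and 3.13% lower. aldh1a2, made in trunk mesoderm, was counted with the RA genes. The lists held 33 of mesoderm and tailbud, 17 of endoderm, 32 of the organizer and Nodal pathway, 34 of ventral, BMP and epidermal ectoderm, 31 of the enveloping layer and 26 targets of Fgf and Wnt. At an unadjusted p under 0.05 the organizer list had 4 higher and 3 lower, the ventral list 1 higher, the Fgf and Wnt list 1 each way and the endoderm and enveloping layer lists 0, while the mesoderm list had 0 higher and 5 lower. Those 5 included msgn1 and tbx16l, regulators of paraxial mesoderm. msgn1 was at 10.98 and 10.84 untreated and at 9.72 and 8.86 with RA (adjusted p = 0.186), and tbx16l at 9.59 and 9.13 against 7.87 and 6.89 (adjusted p = 0.054). Both RA arrays were below both untreated arrays in each of these genes, but 41.3% of all probe sets also did not overlap. The notochord and margin gene tbxta was at 10.90 and 10.96 untreated and at 10.65 and 10.71 with RA.

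Maternal transcripts and genes of the germ cells and the yolk syncytial layer had medians away from the -0.02 over all probe sets. No gene was called by limma in the lists that follow. The 33 maternal and oocyte transcripts had a median change of 0.44, with 5 higher and 0 lower at an unadjusted p under 0.05 (4.38% and 3.13% of all probe sets). Their summed level (log2 of the summed linear values) was 14.98 and 15.12 in untreated embryos and 15.18 and 15.39 with RA, and 31 and 32 of the 33 were above background on both arrays. The 14 germ cell genes had a median of 0.35 and 1 at an unadjusted p under 0.05. The 19 genes of the yolk syncytial layer had a median of -0.43 with summed levels of 14.71 and 14.51 against 14.27 and 14.35, and the 31 enveloping layer genes one of -0.09, with 15.72 and 15.65 against 15.63 and 15.64. Among probe sets above a level of 7 in untreated embryos of 4 or 9 hpf, 1449 fell by at least 2 on the log2 scale from 4 to 9 hpf in untreated embryos. These arrays do not enter the 6 hpf change itself, but they share in the estimate of spread behind its calls. Their median change with RA at 6 hpf was 0.41, with 85.4% positive. The 1209 that rose by at least 2 over that time had a median of -0.24, with 24.5% positive. The 5460 others had one of 0.02, with 52.8% positive. Over all probe sets of any level, 47.8% were positive. The RA arrays of 6 hpf thus had, on balance, more of the transcripts that decline and less of those that accumulate. The part of this in the calls was not tested. As measured, the first class held 3 of the 39 probe sets called higher, those of nrip1b, tmem41aa and si:ch211-212o1.2. In nrip1b and tmem41aa, but not in si:ch211-212o1.2, both untreated arrays of 4 hpf lay above both RA arrays of 6 hpf. The second class held 9 of the 39, together with 4 of the 5 called lower, her3, aldh1a2, serpinh1b and cdc42ep4a. The 5460 others held 6 of the 39, and irx7 of those called lower. Among these 6 was exoc6b, whose untreated mean fell from 8.75 at 4 hpf to 6.76 at 9 hpf, just short of the cut. The rest of the 39 were in no class, as their mean levels in untreated embryos of 4 and 9 hpf did not exceed 7. Of all 15502 probe sets, the 3 classes held 1449, 1209 and 5460. Medians of 34 cell cycle genes and 59 ribosomal protein genes changed by -0.04 and -0.07.

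Levels at 4 and 9 hpf place the 6 hpf response in time. The 39 probe sets called higher had a median level of 4.46 in untreated embryos of 6 hpf and of 6.10 at 9 hpf, by when 23 of them were above background on both untreated arrays. meis3 reached 10.13 and 10.04 at 9 hpf without RA, rx3 9.11 and 8.65, zic1 8.77 and 8.88, and nr2f5 9.34 and 8.44. In these 4 genes the RA arrays of 6 hpf lay at 7.23 to 8.87, and their means were under those of untreated embryos of 9 hpf. For the 39 as a set, the median level was 8.54 with RA at 6 hpf, above the 6.10 of untreated embryos of 9 hpf. The means of hoxb5b were 11.13 against 5.80, and those of mpped2 10.28 against 6.15. The 39 were chosen as higher with RA at 6 hpf. That choice favours a high level with RA and a low level without it at that stage, so these medians do not describe genes in general. Some of the 39 were still below background in untreated embryos of 9 hpf, among them cyp26b1 at 3.05 and 2.99 and foxg1b at 3.52 and 1.76.

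With RA, the median level of the 39 was 5.23 at 4 hpf, 8.54 at 6 hpf and 8.41 at 9 hpf. The change with RA was positive in 22 of 39 at 4 hpf (40.8% of all probe sets) and in 36 of 39 at 9 hpf (48.7% of all), with medians of 0.09 and 1.15. It was smaller than at 6 hpf in 38 and 39 of them, which the choice of probe sets at 6 hpf favours. Tested on its own, the 4 hpf comparison had 14 calls by limma (0.0903%), 2 higher (0.0129%) and 12 lower (0.0774%), and the 9 hpf comparison 0 (0%), with 846 and 424 probe sets at an unadjusted p under 0.05. cyp26a1 was already higher at 4 hpf, at 9.21 and 9.36 untreated against 10.70 and 11.77 (change 1.95, adjusted p = 0.028). hoxb5b had 5.61 and 8.78 with RA at 4 hpf, against 1.10 and 0.64 (adjusted p = 0.051), whereas hoxb1a had 3.28 and 2.62 against 3.25 and 2.69.

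**Figure D4:**
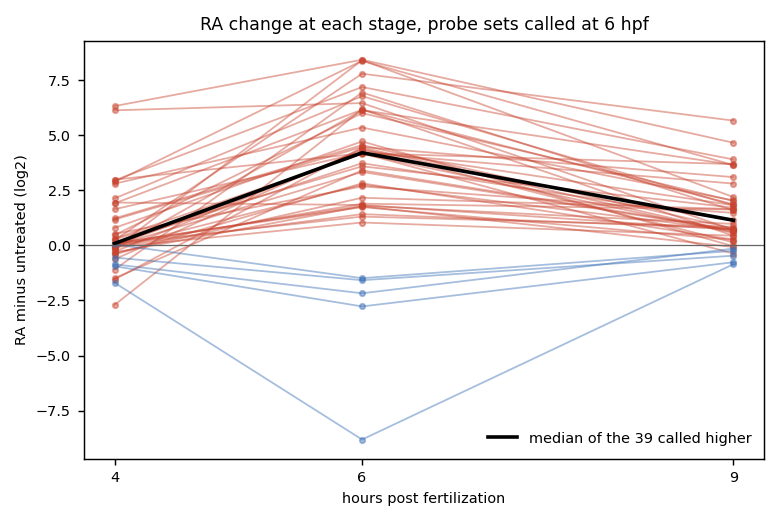
Change with RA (vertical axis, RA minus untreated, log2) at 4, 6 and 9 hpf (horizontal axis) for the 44 probe sets called at 6 hpf; red lines are those higher and blue lines those lower with RA, and the black line is the median of the 39 higher ones, at 0.09, 4.21 and 1.15. The probe sets were chosen at 6 hpf, which favours a peak there.

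The difference between the stages was tested itself, and 1 probe set passed, that of her3. The effect of RA on her3 was 7.13 lower at 6 hpf than at 4 hpf (-7.13 ± 0.55, adjusted p = 0.002, 0.00645% of probe sets called) and 7.97 higher at 9 hpf than at 6 hpf (7.97 ± 0.55, adjusted p = 0.0006). In untreated embryos her3 was at 6.21 and 5.55 at 4 hpf and at 9.44 and 9.30 at 9 hpf. With RA it was at 4.34 and 4.03 at 4 hpf and at 8.33 and 8.71 at 9 hpf, so that it was below background at 4 and 6 hpf and differed from untreated embryos by -0.85 at 9 hpf (adjusted p = 1.00). Sizes that involve the RA arrays of 6 hpf include values below background; with all values raised to that level the differences were -3.60 and 3.33, and both were still called. For the other 43 probe sets a difference between stages did not pass, which does not show that the effect was alike.

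**Figure D5:**
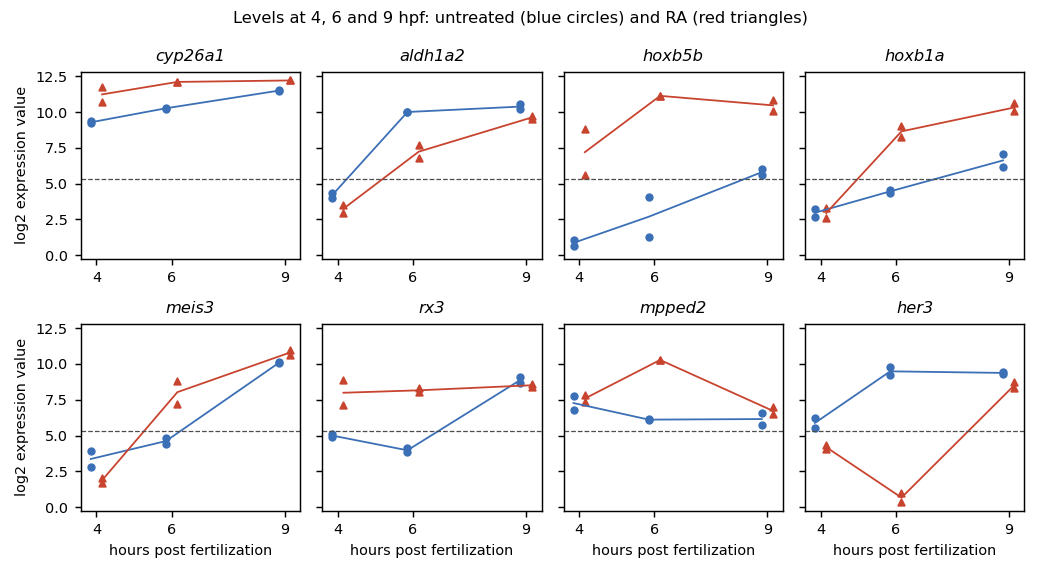
Log2 expression values (vertical axis) at 4, 6 and 9 hpf (horizontal axis) for 8 genes called at 6 hpf; blue circles are the untreated arrays, red triangles the RA arrays, lines join the group means and the dashed line is the background level. her3 is at 0.36 and 0.98 with RA at 6 hpf and at 8.33 and 8.71 at 9 hpf, and rx3 with RA at 9 hpf is at 8.61 and 8.41, below its untreated arrays.

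The 5 probe sets without a gene and 1 gene with a code name were also called, all higher with RA. The brightest of the 5 was at 5.82 and 4.34 untreated and at 11.57 and 11.53 with RA (change 6.47, adjusted p = 0.024), and it reached 10.86 and 10.82 in untreated embryos of 9 hpf. Another was at -0.05 and -0.48 against 6.97 and 6.89, at least 3.10-fold higher. si:ch211-212o1.2 rose 12.1-fold, from 6.50 and 5.51 to 9.66 and 9.54.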

How the data were processed

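The log2 expression values per probe set were made and deposited by the authors, who corrected background by mas5 and normalized arrays by the invariantset method in the R package affy (2.15.2 in the submitters' processing notes). How probes were summarised and whether mismatch probes were subtracted are not given in the sources used here. The 115 array controls were left out of the 15617 probe sets. Gene names came from the platform table: 10795 probe sets carry 1 gene, 135 several and 4572 none, and 38 symbols were updated. A gene with several probe sets was represented by the one with the highest mean over the 12 embryo arrays.

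Group means of these 12 arrays were fitted with limma 3.58.1 in R 4.3.3, with empirical Bayes moderation and an intensity trend. Two-sided p-values received a Benjamini-Hochberg adjustment over 15502 probe sets, with 0.05 as threshold. The code was tested on simulated data with changes placed only in probe sets with a mean above 7. Changes that start from background were not covered by it. Where both arrays of the dimmer group were at or below background, the fold compares the brighter group's mean with that level ("at least"), and none is given where both groups were there. A list was described by counts and its median, with no set test. Named genes were the 15 highest and 15 lowest called ones, called members of the hox, RA and neural lists, up to 4 called members of other lists, and uncalled RA and hox members by value. Uncalled members of further lists were named after their values were seen. Members, lists and rules were chosen with earlier results of these data known. No promoter or probe sequences were used here. The alternatives were quantile normalization, a common median, an offset of 32 before log2, a filter on background, no trend, a replicate block, the 4 arrays alone, and each array left out; raising values to background was added later. The number of arrays limits the precision.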

Additional observations from a re-analysis of the deposited data

Results flagged for a closer look

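The effect of RA on her3 differed between stages by a test of the difference itself. It was -7.13 (SE 0.55, adjusted p = 0.0018) for 6 hpf minus 4 hpf and 7.97 (SE 0.55, adjusted p = 0.0006) for 9 hpf minus 6 hpf, and both RA arrays of 6 hpf, but neither RA array of 9 hpf, were below background. Of the alternatives run, the first difference lost its call under the replicate block alone (adjusted p = 0.071), and the second kept it throughout (adjusted p between 0.0004 and 0.040).

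The tag controls match no zebrafish gene and were not among the probe sets tested. Their median was 1.59 higher on the RA arrays of 6 hpf than on the untreated arrays of 6 hpf. All 4 medians were below the background level of 5.302. That level was taken from the tag controls of all arrays, so the "at least" folds, the counts above background and the alternatives that use background rest on them. The part of the tag difference in the results was not tested.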

How the results depend on the processing

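The count of probe sets called at 6 hpf, 44 in the fit reported, was 93 with an offset of 32 before log2 (71 higher, 22 lower). It was 74 with the 4 arrays of 6 hpf alone (56 and 18) and 96 with values raised to background (69 and 27). With the replicate block it was 28 (24 and 4), while other settings gave 36 to 59. Of the 44 themselves, 39 were kept with the offset, 34 with the 4 arrays alone, 28 with values raised and 24 with the block. Quantile normalization kept 40 of them, the common median 36 and the filter on background 41. Without the intensity trend 32 were higher and 10 lower, and 28 of the 44 were kept. Leaving out 1 array gave 1 to 49 calls, the fewest without an RA array of 6 hpf. The 8 hox genes became 6 to 11 under settings that keep all arrays of 6 hpf and 0 to 10 with 1 array left out: 3 without either untreated array of 6 hpf and 0 without either RA array, where limma still gave 18 and 17 of 42 at an unadjusted p under 0.05. A group left with 1 array is assumed to vary like the others. Without the first RA array of 6 hpf 37 of the 39 probe sets with a single gene lost their call, and without the second 38; her3 kept it in all. With all arrays of 6 hpf kept, 12 of the 39 were called under each of 8 settings. Called least often were the dimmer hoxd4a probe set (1 of 8), exoc6b (2), tiparp and tmem41aa (3), ppp1r13ba (3 of 7), and meis3 and cdc42ep4a (4). No direction was reversed under the settings run, but the change of ppp1r13ba became 0 with values raised to background.

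The count for 6 hpf minus 4 hpf, 1 in the fit reported, was 3 with quantile normalization, 9 with the offset, 12 without the trend, 39 with values raised, 0 with the replicate block (limma, 910 at an unadjusted p under 0.05) and 1 to 27 with 1 array left out, 27 without RA array 2 of 4 hpf. That for 9 hpf minus 6 hpf, also 1, was 4 with the offset, 2 without the trend, 36 with values raised and 1 to 3 with 1 array left out. The cause of these shifts was not tested. Deviations of same-numbered arrays correlated at 0.27, -0.02 and -0.38 at 4, 6 and 9 hpf, with no common sign across the stages. Whether replicate numbers pair the samples cannot be told from 1 correlation a stage, and no label says so. With the block crossed at 9 hpf the count for 9 hpf minus 6 hpf was 5. Signal near background limits the size of most changes.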

Other observations

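A set of 24 further probe sets, 17 higher and 7 lower with RA, was not called by the fit reported but by both of these alternatives. One was an offset of 32 before log2 in a fit of the same 12 arrays, the other the 4 arrays of 6 hpf alone. Both alternatives use the same 4 arrays of 6 hpf and are not independent, and the set was chosen after its values were seen. Besides hoxa5a, hoxc1a, dhrs3a, raraa, znf703, nr2f6b and hnf1bb, given above, the higher ones included fgfr2, an Fgf receptor gene, at 6.44 and 6.54 untreated and 8.57 and 8.33 with RA. skib, a corepressor gene of the Ski family, was at 6.11 and 5.87 against 8.13 and 8.26. bcar1, an adaptor protein gene of cell adhesion, was at 6.38 and 6.58 against 9.51 and 8.96, and the glycolytic regulator pfkfb3 at 5.92 and 5.51 against 8.39 and 8.97. In the fit reported, adjusted p by limma was 0.200 for fgfr2, 0.076 for skib, 0.069 for bcar1 and 0.765 for pfkfb3. In each of these 4 genes both RA arrays exceeded both untreated arrays, which the choice by a test of the same arrays favours. Of all probe sets, 41.3% did not overlap between the groups.

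Among the lower ones was sox2, the neural progenitor factor, whose probe set was at 9.63 and 9.64 untreated and 7.60 and 7.43 with RA. The brighter sox2 probe set is given above, and a dim further one overlapped between the groups. ca9, a carbonic anhydrase gene, was at 7.78 and 8.56 against 5.14 and 5.36, the RA arrays lying 1 below and 1 above background. rasl11b, a small GTPase gene, was at 9.68 and 9.83 against 8.50 and 7.98.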
